A study of Mus musculus with 9 samples.

Results

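Fatty acid synthesis and desaturation was followed through 10 genes in mouse pancreatic stellate cells, the fibroblast-like cells of the pancreas that lay down matrix in injury and cancer. The genes were Srebf1, Acly, Acaca, Fasn, Scd1, Scd2, Elovl6, Fads1, Fads2 and Acsl3. They were found by symbol among 17156 genes in the table of counts, and all 10 were present and passed the filter on low counts. Cultures labelled CM-JAKi grew for 4 days in medium conditioned by tumour organoids to which 500 nM AZD1480, a JAK kinase inhibitor, was added. CM cultures had the organoid medium alone, and MG-CM cultures had a control medium of DMEM with 5% FBS, which another label calls Matrigel-conditioned or control medium. Each group had 3 libraries. Replicate 1 was the stellate line PSC4, replicate 2 PSC5-I and replicate 3 PSC5-II, all wild type and of the C57BL/6J strain, and each replicate number had its own source of conditioned medium. Line and medium source therefore change together, the FBS content of CM is not given apart from that of the control, and no vehicle for the inhibitor is named.

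Fatty acids are built in the cytosol from citrate. ATP citrate lyase (Acly) splits citrate to acetyl-CoA, acetyl-CoA carboxylase (Acaca) carboxylates it to malonyl-CoA, and fatty acid synthase (Fasn) joins these units into palmitate. Elovl6 lengthens palmitate to stearate, the stearoyl-CoA desaturases Scd1 and Scd2 put in the first double bond, and Fads1 and Fads2 desaturate the polyunsaturated chains that start from diet-derived fatty acids. Acsl3 attaches coenzyme A to fatty acids, which prepares them for storage or membrane lipids. Srebf1 encodes SREBP-1, the transcription factor known to drive most of these genes once Scap has carried it from the endoplasmic reticulum to the Golgi for cleavage. The Insig proteins hold Scap back when sterols are plentiful.

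The 9 libraries held 25625806 to 32466018 counts, with 15678 to 15944 genes detected per library. The lowest count of any of the 10 genes was 2141, for Elovl6 in MG-CM replicate 2, with a 95% Poisson interval of 2051.3 to 2233.7. Such intervals cover counting error only, and counting error is at most 4.26% for these genes. Library totals did not overlap between CM (30591103 to 32466018) and MG-CM (26672965 to 29121630), and the part of this difference in the results was not tested. The summed level of 10 stellate and fibroblast markers was 7261.7 to 7814.7 CPM (counts scaled to the library total, here without the trimmed-mean scaling, TMM, used for all other CPM values) in CM-JAKi, 3327.7 to 5276.2 in CM and 5865.6 to 6459.9 in MG-CM. The stellate sums were thus lowest in CM, but the markers differed among themselves. In CM against MG-CM 4 of the 10 had positive and 6 negative log2 fold changes. Only Vim was called there (lower), beside 5.39% of all genes. In CM-JAKi against CM 9 were positive, and Col1a1 and Col1a2 were called (higher), beside 10.1% of all genes. With the replicate number as a block in the fit, 3 were called lower in the former, beside 12.8% of all genes. In the latter 6 were called higher, beside 18.6%. All marker sums here take every listed gene in the table, also those that did not pass the filter. Of 9 leukocyte markers 7 were in the table and 4 passed the filter, with sums of 16.6 to 33.7 CPM in CM-JAKi, 33.8 to 110.8 in CM and 23.2 to 36.0 in MG-CM, most of it Cd14. The pan-leukocyte gene Ptprc had 4 counts over all 9 libraries. Of 8 adipocyte markers 7 were in the table and 3 passed, with sums of 30.5 to 36.1 CPM in CM-JAKi, 30.5 to 39.9 in CM and 22.0 to 23.5 in MG-CM. The adipocyte-defining genes Adipoq and Plin1 had 9 and 4 counts in all. The adipocyte sums were higher in both groups with organoid medium, but the genes within them moved in different directions. Fabp4, a fatty acid binding protein chosen here after its values were seen, averaged 2.23 ± 1.08 CPM in CM-JAKi, 11.5 ± 4.71 in CM and 1.15 ± 0.526 in MG-CM (SD, n = 3 each). It rose in CM against MG-CM (edgeR log2 3.32 ± 0.51, adjusted p = 0.0103, or 0.0503 without MG-CM replicate 2) and fell in CM-JAKi against CM (-2.35 ± 0.48, 0.0129, or 0.0568 without CM-JAKi replicate 2), as most of the 10 fatty acid genes did. Pparg, which encodes the adipocyte regulator PPAR-gamma and was also chosen after its values were seen, averaged 6.07 ± 1.93 CPM in CM-JAKi, 2.23 ± 0.85 in CM and 3.38 ± 0.632 in MG-CM. It rose in CM-JAKi against CM (1.44 ± 0.35, 0.0245), a call lost without CM replicate 1, CM replicate 3, CM-JAKi replicate 2 or CM-JAKi replicate 3 (0.0556 to 0.0922). In CM against MG-CM its log2 difference was -0.60 ± 0.35 (adjusted p = 0.31, or 0.0446 with the replicate number as a block). The endothelial sums were lowest in CM. Endothelial markers (6 of 7 in the table, 5 passing) summed to 9.01 to 16.9 CPM in CM-JAKi, 3.00 to 4.47 in CM and 6.11 to 8.65 in MG-CM. Emcn and Tek were called, lower in CM against MG-CM (beside 5.39% of all genes) and higher in CM-JAKi against CM (beside 10.1%). In the latter, 3 of the 5 tested had negative log2 fold changes, opposite to the sums. Ductal and epithelial markers (9 of 9 in the table, 6 passing) summed to 29.5 to 45.4 CPM in CM-JAKi, 32.3 to 36.8 in CM and 35.1 to 50.6 in MG-CM. Acinar markers (4 of 7 in the table, 2 passing) summed to 6.17 to 8.98 CPM in CM-JAKi, 9.41 to 13.5 in CM and 8.01 to 8.77 in MG-CM. The epithelial gene Epcam had 24 counts in all. The part of these markers in the results below was not tested. In bulk RNA, fewer cells of a type and less RNA per cell cannot be told apart.

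The start regions of the genes are shown because the genes moved together, as described below. RefSeq windows on build GRCm38.p6, of 250 bases before and 50 after a gene's start, were at hand for 7 of the 10 genes, in 9 windows. The 4 printed here belong to Fasn and Elovl6, which moved in both comparisons with CM, to Acsl3, whose drop with the inhibitor was least dependent on any 1 library, and to Acly, which was called in no comparison. Capitals mark CCAAT, the box known to bind NF-Y, and GGGCGG, a box known to bind Sp1, on either strand. All are written 5′ to 3′ along the gene.
Fasn, chr11:120824498-120824797, minus strand: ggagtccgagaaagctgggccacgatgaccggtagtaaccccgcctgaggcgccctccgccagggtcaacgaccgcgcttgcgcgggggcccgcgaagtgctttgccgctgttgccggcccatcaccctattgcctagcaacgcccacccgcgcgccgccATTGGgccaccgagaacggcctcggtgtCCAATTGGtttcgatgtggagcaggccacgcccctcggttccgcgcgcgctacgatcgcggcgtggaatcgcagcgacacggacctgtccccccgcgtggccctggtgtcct
Elovl6, chr3:129532136-129532435, plus strand: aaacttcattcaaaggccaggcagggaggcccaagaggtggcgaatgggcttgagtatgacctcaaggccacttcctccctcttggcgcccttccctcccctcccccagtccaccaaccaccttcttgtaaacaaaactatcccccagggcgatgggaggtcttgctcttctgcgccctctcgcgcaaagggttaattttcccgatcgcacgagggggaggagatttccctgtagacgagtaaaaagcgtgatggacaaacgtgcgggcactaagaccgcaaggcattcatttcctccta
Acsl3, chr1:78657575-78657874, plus strand: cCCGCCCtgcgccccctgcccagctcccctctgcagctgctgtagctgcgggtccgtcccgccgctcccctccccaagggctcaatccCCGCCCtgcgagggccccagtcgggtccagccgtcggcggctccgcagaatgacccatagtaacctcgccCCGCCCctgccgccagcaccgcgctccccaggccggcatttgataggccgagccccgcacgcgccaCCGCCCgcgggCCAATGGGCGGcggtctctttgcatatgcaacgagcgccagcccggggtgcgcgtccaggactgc
Acly, chr11:100527951-100528250, minus strand: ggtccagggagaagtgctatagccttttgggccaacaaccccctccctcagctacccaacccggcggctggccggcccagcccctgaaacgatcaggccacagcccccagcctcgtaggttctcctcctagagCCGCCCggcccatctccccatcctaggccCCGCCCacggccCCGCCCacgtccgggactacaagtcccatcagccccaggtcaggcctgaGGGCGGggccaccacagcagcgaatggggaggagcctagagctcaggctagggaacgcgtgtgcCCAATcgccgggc
The Fasn window held 3 CCAAT boxes, of which a pair overlap each other on opposite strands, and no GGGCGG. The Acsl3 window held 1 CCAAT box, directly followed by 1 of its 5 GGGCGG boxes, and the Acly window held 1 CCAAT and 4 GGGCGG boxes. The Elovl6 window held neither. CCAAT was present in 5 of the 9 windows and in 37.4% of all 32851 mouse windows of this length, and GGGCGG in 5 of 9 and in 35.7%. These are counts of windows and not of genes, since Srebf1 has several of the 9. The last bases of 1 Srebf1 window were in no GENCODE transcript of that gene. The sterol regulatory element TCACNCCAC, a sequence known to bind SREBP, was in 0 of 9 windows and in 1.24% of all, and the E-box CACGTG in 0 of 9 and in 7.15%. A missing match says only that these letters are not in these windows.

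Most of the 10 genes were higher in CM than in MG-CM and lower again with the JAK inhibitor, to levels whose differences from MG-CM missed the threshold. Of the 10 genes 8 rose in CM against MG-CM and 0 fell (quasi-likelihood F-test of edgeR, p adjusted over all genes and called under 0.05), while 4.85% of the 13613 genes tested rose and 5.39% fell. With CM-JAKi against CM, 7 of the 10 fell and 0 rose, against 8.93% of all genes that fell and 10.1% that rose. Srebf1 and Acly were called in neither comparison, and Fads2 rose with CM without a called drop with the inhibitor. Between CM-JAKi and MG-CM, 0 of 10 were called, where 0.286% of all genes were higher and 0.720% lower. The median log2 fold change over the 10 genes was 0.62 in CM against MG-CM, -0.48 in CM-JAKi against CM and 0.14 in CM-JAKi against MG-CM, and that over all genes was 0.00575, 0.00802 and 0.00541. These comparisons share their libraries in pairs, so a high or low CM library moves the first and the second of them in opposite directions.

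**Figure D1:**
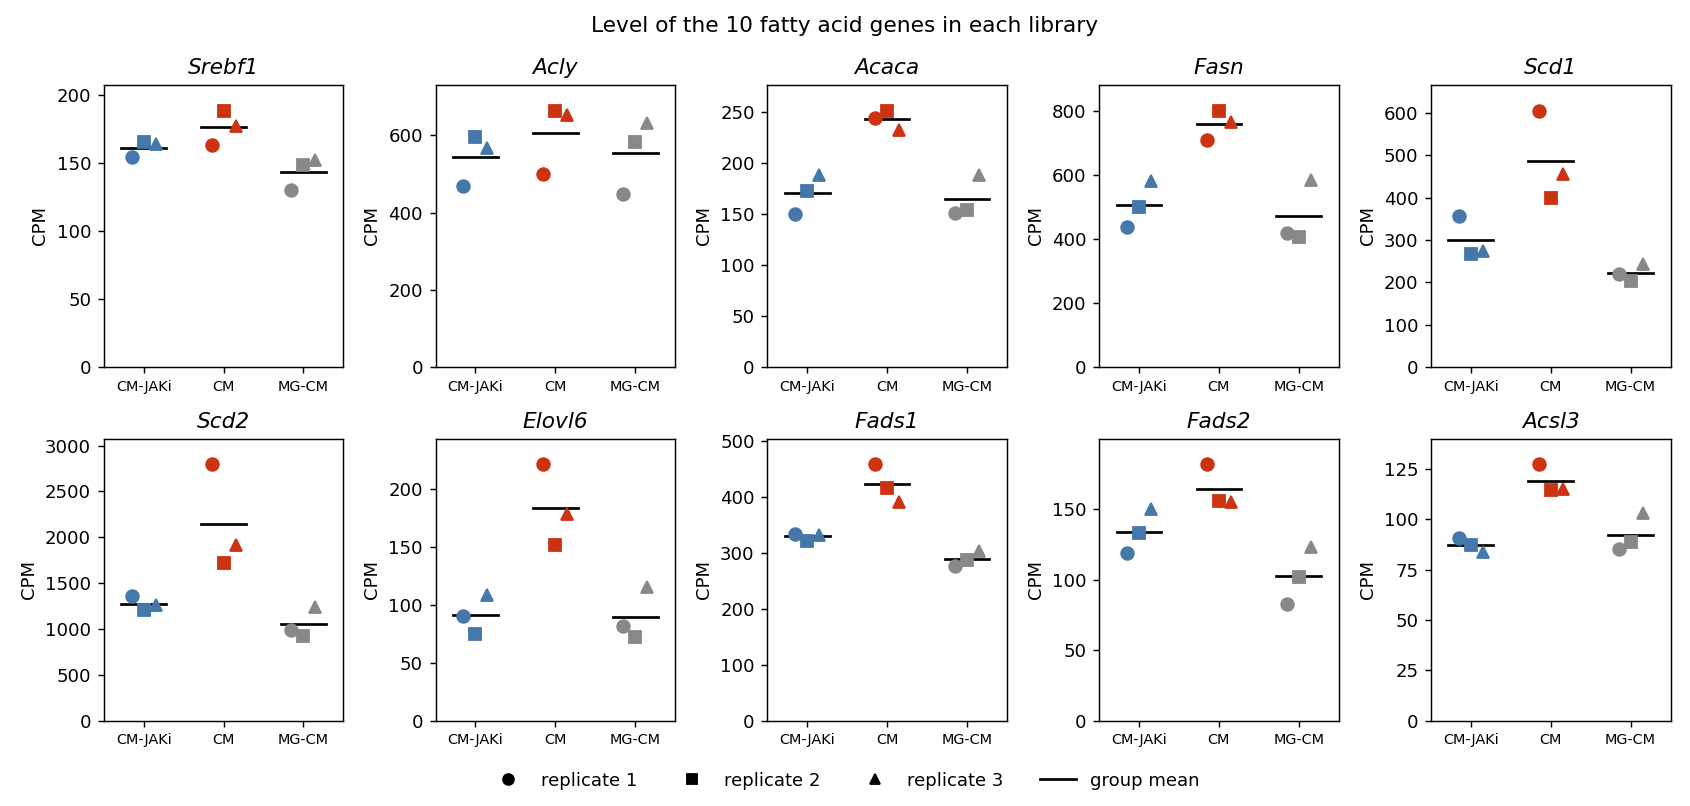
Level of each of the 10 genes in each library, in CPM scaled by TMM, by group (CM-JAKi, CM, MG-CM), with 1 panel per gene and its own axis. Circles, squares and triangles are replicates 1, 2 and 3 and the line is the group mean. CM stands above both other groups for Acaca, Fasn, Scd1, Scd2, Elovl6, Fads1, Fads2 and Acsl3, while the groups of Acly overlap.

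Added up, the 10 genes had 3555.6, 3524.0 and 3709.1 CPM in CM-JAKi replicates 1, 2 and 3, against 6008.9, 4862.4 and 5036.9 CPM in CM and 2879.7, 2969.2 and 3687.5 CPM in MG-CM. The CM libraries were the highest 3, with PSC4 in front, and CM-JAKi replicates 1 and 2 lay below MG-CM replicate 3. As a share of all counts this was 0.367%, 0.367% and 0.374% in CM-JAKi, 0.565%, 0.483% and 0.479% in CM and 0.296%, 0.301% and 0.365% in MG-CM. The PSC5-II control was the highest MG-CM library for 10 of the 10 genes. The same-numbered difference of CM over MG-CM was smallest in PSC5-II for 10 of 10 and largest in PSC4 for 6 of 10. Without a cut-off on p, the groups of CM and MG-CM did not overlap for 9 of 10 genes, all higher in CM, against 16.0% of all genes. Those of CM-JAKi and CM did not overlap for 8 of 10, all lower in CM-JAKi, against 18.3%.

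Both counts dropped on omission of certain libraries, and so did the counts over all genes. Without MG-CM replicate 2, 0 of the 10 genes were called in CM against MG-CM, although each kept its sign, and 0.326% of all genes tested were called higher. The count was 3 without MG-CM replicate 1 (2.88% of all genes higher) or CM replicate 1 (2.24%), 5 without CM replicate 2 (3.55%) and 6 to 8 without each other library. In CM-JAKi against CM the count was 1 without CM-JAKi replicate 2, where 3.48% of all genes were called lower. It was 3 without CM replicate 1 (5.37% of all genes lower), 4 without CM-JAKi replicate 3 (5.10%) and 6 or 7 without each other library. With the replicate number as a block in the fit, 9 and 7 of the 10 were called, against 11.6% of all genes higher and 15.6% lower. Within PSC5 alone, in 2 libraries per group, 5 of the 10 genes rose in CM against MG-CM and 5 fell in CM-JAKi against CM, beside 6.15% of all genes higher and 10.4% lower. PSC4 alone has 1 library per group and gives no test.

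Srebf1 itself, the regulator, differed little. It had 154.1, 164.9 and 163.6 CPM in CM-JAKi, 163.3, 188.3 and 176.7 CPM in CM and 130.3, 148.4 and 151.9 CPM in MG-CM (replicates 1, 2 and 3 here and below). Every CM library exceeded every MG-CM library, whereas CM-JAKi and CM overlapped. The log2 fold change of CM over MG-CM was 0.29 ± 0.09 (SE, adjusted p = 0.0717, 95% interval 0.09 to 0.50), which missed the threshold. With the block the adjusted p was 0.015 and with DESeq2 it was 0.0133. CM-JAKi against CM gave -0.13 ± 0.09 (adjusted p = 0.34, interval -0.33 to 0.07). The table counts Srebf1 as 1 gene, so its SREBP-1a and SREBP-1c transcripts are not separated.

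Acly, which supplies acetyl-CoA, had 468.8, 596.8 and 568.6 CPM in CM-JAKi, 499.1, 664.4 and 653.2 CPM in CM and 447.4, 581.9 and 632.1 CPM in MG-CM. Its groups overlapped in each comparison, and replicate 1, the PSC4 line, was the lowest in every group. The log2 fold change was 0.13 ± 0.17 in CM against MG-CM (adjusted p = 0.672, interval -0.26 to 0.51) and -0.15 ± 0.17 in CM-JAKi against CM (adjusted p = 0.562, interval -0.54 to 0.23). Within same-numbered libraries CM was higher than MG-CM in 3 of 3 pairs, by 0.16, 0.19 and 0.05.

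The next enzymes of the chain moved with CM and with the inhibitor. Acaca, which makes malonyl-CoA, had 150.4, 172.2 and 188.4 CPM in CM-JAKi, 244.6, 251.5 and 232.9 CPM in CM and 151.0, 154.0 and 188.1 CPM in MG-CM. The CM libraries stood apart from both other groups, and these overlapped. Acaca rose 1.48-fold in CM against MG-CM (log2 0.56 ± 0.12, adjusted p = 0.0223) and fell by 0.51 ± 0.12 on the log2 scale in CM-JAKi against CM (adjusted p = 0.0186). Of the 50-base stretches of its transcript, 52.6% also occur in the pseudogene Gm5182, which is not a row of the table used here, so the level of Acaca is uncertain. The rise in CM did not pass on omission of MG-CM replicate 1 (adjusted p of 0.058), MG-CM replicate 2 (0.0963), CM replicate 1 (0.0536) or CM replicate 2 (0.0523), and the drop was not called without CM-JAKi replicate 2 (0.0647).

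Fasn, the palmitate-making enzyme, had 436.8, 501.0 and 582.3 CPM in CM-JAKi, 709.4, 802.3 and 765.3 CPM in CM and 417.9, 408.0 and 586.6 CPM in MG-CM. The lowest CM library was above the highest of the others, and in both remaining groups PSC5-II was the highest. Fasn rose 1.61-fold in CM against MG-CM (log2 0.69 ± 0.17, adjusted p = 0.034). In CM-JAKi against CM it fell by 0.58 ± 0.17 on the log2 scale (adjusted p = 0.0398). More single libraries could end the calls of Fasn than those of Acaca or Elovl6. The rise did not pass on omission of MG-CM replicate 1 (adjusted p of 0.0877), MG-CM replicate 2 (0.137), CM replicate 1 (0.0642), CM replicate 2 (0.0781), CM replicate 3 (0.0715) or CM-JAKi replicate 2 (0.0599). The drop was not called without CM-JAKi replicate 1 (0.0911), CM-JAKi replicate 2 (0.121), CM replicate 1 (0.0662), CM replicate 2 (0.0926) or CM replicate 3 (0.079), nor with scaling by library size alone (0.0575).

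Elovl6, the elongase that acts on palmitate, had 90.3, 75.1 and 108.2 CPM in CM-JAKi, 221.6, 151.8 and 178.8 CPM in CM and 82.0, 72.4 and 115.4 CPM in MG-CM. CM was above both other groups in every library, and the CM-JAKi and MG-CM values lay among each other. Elovl6 rose 2.05-fold in CM against MG-CM (log2 1.03 ± 0.21, adjusted p = 0.0225). With CM-JAKi against CM its log2 fold change was -1.01 ± 0.21 (adjusted p = 0.0143), the most negative of the 10. The pair differences of that drop were -1.29 in PSC4, -1.01 in PSC5-I and -0.72 in PSC5-II. The rise did not pass on omission of MG-CM replicate 1 (adjusted p of 0.0598), MG-CM replicate 2 (0.0897) or CM replicate 1 (0.0615), and the drop was not called without CM-JAKi replicate 2 (0.0576). Within PSC5 alone neither was called (adjusted p = 0.109 and 0.0738).

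The desaturases of saturated fatty acids had rises of a size like that of Elovl6. Scd2, the stearoyl-CoA desaturase with the highest level per length of the 10 genes, had 1354.4, 1205.1 and 1259.5 CPM in CM-JAKi, 2798.1, 1717.2 and 1914.4 CPM in CM and 987.9, 925.3 and 1241.3 CPM in MG-CM. CM was again the highest group without overlap, with PSC4 far above the PSC5 libraries, and the other groups overlapped. Scd2 rose 2.04-fold in CM against MG-CM (log2 1.03 ± 0.20, adjusted p = 0.0184) and fell by 0.75 ± 0.20 on the log2 scale in CM-JAKi against CM (adjusted p = 0.031). The rise did not pass on omission of MG-CM replicate 2 (adjusted p of 0.086), and the drop was not called without CM-JAKi replicate 2 (0.106), CM-JAKi replicate 3 (0.081) or CM replicate 1 (0.0657).

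Scd1, its paralog, had 357.5, 267.5 and 273.0 CPM in CM-JAKi, 605.5, 400.2 and 454.7 CPM in CM and 219.9, 202.0 and 242.9 CPM in MG-CM. Here the 3 groups did not overlap at all, with CM-JAKi between the others. Scd1 had the largest rise of the 10 in CM against MG-CM, 2.2-fold (log2 1.14 ± 0.18, adjusted p = 0.0103), and fell by 0.70 ± 0.18 in CM-JAKi against CM (adjusted p = 0.0266). For every 100 Scd2 counts there were 26.4, 22.2 and 21.7 Scd1 counts in CM-JAKi, 21.6, 23.3 and 23.8 in CM and 22.3, 21.8 and 19.6 in MG-CM, so the groups overlapped in this ratio. The transcripts of Scd1 and Scd2 share 4.66% and 4.01% of their 50-base stretches with other genes, among them each other, Scd3 and Scd4. The rise of Scd1 did not pass on omission of MG-CM replicate 2 (adjusted p of 0.0557), and the drop was not called without CM-JAKi replicate 2 (0.0974), CM-JAKi replicate 3 (0.0825) or CM replicate 1 (0.0665). Within PSC5 alone Scd1 and Scd2 rose and fell with calls in both comparisons (adjusted p = 0.00619 and 0.01 for Scd1, 0.0287 and 0.0467 for Scd2).

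Fads1, the delta-5 desaturase of polyunsaturated fatty acids, had 333.9, 320.9 and 331.7 CPM in CM-JAKi, 458.0, 416.2 and 391.1 CPM in CM and 275.3, 287.0 and 303.0 CPM in MG-CM. Its 3 groups were separate too, in the same order as for Scd1. Fads1 rose 1.46-fold in CM against MG-CM (log2 0.55 ± 0.09, adjusted p = 0.0116) and fell by 0.36 ± 0.09 on the log2 scale in CM-JAKi against CM (adjusted p = 0.0265). The rise did not pass on omission of MG-CM replicate 2 (adjusted p of 0.0584). The drop was not called without CM-JAKi replicate 2 (0.0954), CM-JAKi replicate 3 (0.067) or CM replicate 1 (0.0661), nor with scaling by library size alone (0.0586).

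Fads2, the delta-6 desaturase at the first step of that route, had 118.6, 133.2 and 150.2 CPM in CM-JAKi, 181.8, 155.8 and 154.8 CPM in CM and 82.8, 101.5 and 123.1 CPM in MG-CM. CM stood above both other groups, though by little over CM-JAKi in PSC5-II, and CM-JAKi overlapped MG-CM. Fads2 rose 1.6-fold in CM against MG-CM (log2 0.68 ± 0.15, adjusted p = 0.0277), with pair differences of 1.13 in PSC4, 0.62 in PSC5-I and 0.33 in PSC5-II. Its log2 fold change in CM-JAKi against CM was -0.29 ± 0.15 (adjusted p = 0.207, interval -0.64 to 0.05), or an adjusted p of 0.128 with the block. Here the pair differences were -0.62, -0.23 and -0.04. The rise did not pass on omission of MG-CM replicate 1 (adjusted p of 0.0579), MG-CM replicate 2 (0.107) or CM replicate 1 (0.0805).

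Acsl3, the acyl-CoA synthetase, had 90.8, 87.3 and 83.7 CPM in CM-JAKi, 127.5, 114.9 and 115.2 CPM in CM and 85.2, 88.6 and 103.1 CPM in MG-CM. The CM libraries were above all the others, and PSC5-II was the highest of MG-CM and the lowest of CM-JAKi. Acsl3 fell by 0.45 ± 0.09 on the log2 scale in CM-JAKi against CM (adjusted p = 0.0131), and this call held whichever of the 9 libraries was omitted (adjusted p at most 0.0491). The rise in CM against MG-CM was 1.29-fold (log2 0.37 ± 0.09, adjusted p = 0.0392). It held only without CM-JAKi replicate 1 or MG-CM replicate 3, since the adjusted p was 0.0602 to 0.14 without each other library, namely MG-CM replicates 1 and 2, CM replicates 1, 2 and 3 and CM-JAKi replicates 2 and 3. Scaling by library size alone also ended it (0.0601).

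**Figure D2:**
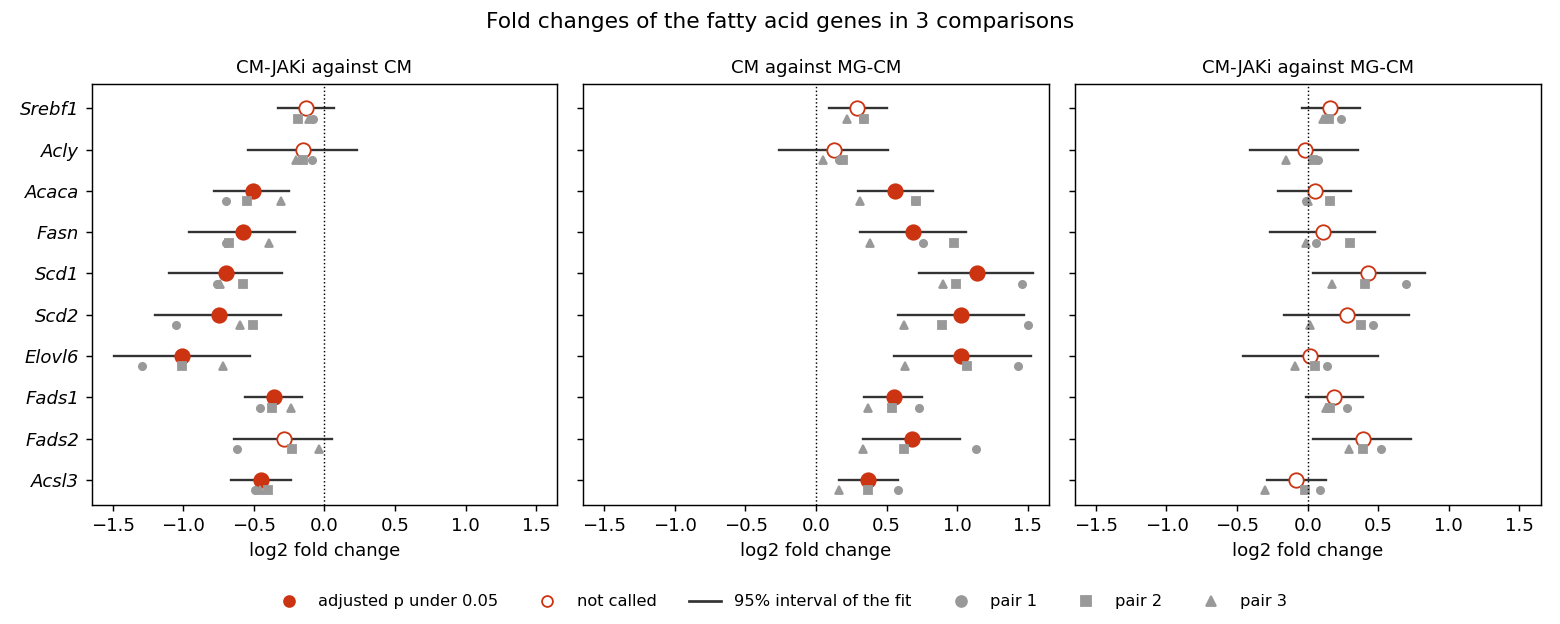
Log2 fold change of each of the 10 genes in CM-JAKi against CM, CM against MG-CM and CM-JAKi against MG-CM, with its 95% interval from the edgeR fit (bar). Filled points have an adjusted p under 0.05 and grey points are the 3 same-numbered pairs. The rises with CM reach 1.14 for Scd1, the drops with the inhibitor reach -1.01 for Elovl6, and no point is filled for CM-JAKi against MG-CM.

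The comparison of CM-JAKi with MG-CM asks how far cells in organoid medium with the inhibitor differed from cells in control medium. For these 10 genes edgeR called 0, as did DESeq2 and the fit with the replicate block (which called 1.85% of all genes higher and 2.40% lower). Scd1 and Fads2 had an unadjusted p under 0.05, both higher in CM-JAKi. The share of all genes under that unadjusted cut is not given here, so this is a description only. Scd1 averaged 299.3 ± 50.5 CPM in CM-JAKi and 221.6 ± 20.5 CPM in MG-CM (SD, n = 3 each), a log2 fold change of 0.43 ± 0.18 (adjusted p = 0.405, interval 0.04 to 0.83). Fads2 averaged 134.0 ± 15.8 CPM in CM-JAKi and 102.5 ± 20.2 CPM in MG-CM, a log2 fold change of 0.39 ± 0.15 (adjusted p = 0.39, interval 0.04 to 0.73). Both stood farther above MG-CM than the other 8 genes. The groups did not overlap for Srebf1, Scd1 and Fads1, that is 3 of 10 genes, all higher in CM-JAKi, where 8.87% of all genes were so. For Acaca, Fasn, Elovl6 and Acly the log2 fold changes were 0.05, 0.11, 0.02 and -0.02, with 95% intervals of -0.21 to 0.31, -0.27 to 0.48, -0.46 to 0.50 and -0.41 to 0.36. CM-JAKi and MG-CM overlapped for each of these 4. Scd2, Fads1, Srebf1 and Acsl3 had 0.28, 0.19, 0.16 and -0.08 (intervals -0.17 to 0.72, -0.01 to 0.39, -0.04 to 0.37 and -0.29 to 0.13). These intervals do not show that the levels were alike.

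Levels can be set beside each other only per length, here as CPM per kilobase of a GENCODE transcript of each gene. In CM, Scd2 led with 393 ± 106 CPM per kilobase, followed by Acly with 138 ± 21.0, Fads1 with 122 ± 9.77, Scd1 with 101 ± 22.0 and Fasn with 75.5 ± 4.65 (SD, n = 3). The ranges of Acly and Fads1, and those of Fads1 and Scd1, overlapped. Below them stood Fads2 with 52.1 ± 4.86, Srebf1 with 41.0 ± 2.91, Elovl6 with 30.9 ± 5.91, Acsl3 with 30.2 ± 1.82 and Acaca with 25.5 ± 0.988 CPM per kilobase. The range of Elovl6 overlapped those of Acsl3 and Acaca, which were apart from each other. In CM-JAKi the order had Scd2 at 233 ± 13.9, Acly at 124 ± 15.3 and Fads1 at 95 ± 2.01, with Elovl6 last at 15.3 ± 2.78. MG-CM had Scd2 at 193 ± 30.7, Acly at 126 ± 21.7 and Fads1 at 83.4 ± 4.02, again with Elovl6 last at 15.1 ± 3.79. In both groups the ranges of Elovl6 and Acaca, the gene above it, overlapped.

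Among 15 other regulators of lipid synthesis, 13 were tested. In CM against MG-CM 2 rose and 0 fell (median log2 fold change 0.10), and in CM-JAKi against CM 1 rose and 2 fell (median 0.01). With the block 4 rose and 1 fell in CM against MG-CM, and 1 rose and 4 fell in CM-JAKi against CM. Over all genes 4.85% rose and 5.39% fell in CM against MG-CM, and 10.1% rose and 8.93% fell in CM-JAKi against CM. The blocked fit had 11.6% and 12.8%, and 18.6% and 15.6%. Srebf2, which encodes SREBP-2, the factor of sterol synthesis, averaged 226.5 ± 21.8 CPM in CM-JAKi, 289.8 ± 17.2 in CM and 207.9 ± 20.7 in MG-CM. It rose by 0.48 ± 0.11 in CM against MG-CM (adjusted p = 0.0281) and fell by 0.36 ± 0.11 in CM-JAKi against CM (adjusted p = 0.0499), just inside the threshold. The rise was not called without MG-CM replicates 2 and 3 or CM replicates 1, 2 and 3, each in turn (0.0509 to 0.112), nor the drop without CM replicates 1, 2 and 3, CM-JAKi replicates 2 and 3 or MG-CM replicate 3 (0.074 to 0.171). Insig1, a SREBP target that restrains Scap, rose by 0.75 ± 0.18 in CM against MG-CM (adjusted p = 0.0369) and had -0.48 ± 0.18 in CM-JAKi against CM without a call (0.105, or 0.0308 with the block). That rise was not called without any of MG-CM replicates 1, 2 and 3, CM replicates 1 and 2 or CM-JAKi replicate 3, each in turn (0.053 to 0.141).

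Insig2, the other Insig gene, was raised with the inhibitor. It had 84.2, 79.3 and 107.6 CPM in CM-JAKi, 32.4, 37.4 and 42.7 CPM in CM and 45.6, 44.0 and 45.0 CPM in MG-CM. All CM-JAKi libraries were far above the rest. Insig2 rose by 1.27 ± 0.14 in CM-JAKi against CM (adjusted p = 0.000918), a call that held without each library in turn. It also rose by 1.01 ± 0.14 in CM-JAKi against MG-CM (adjusted p = 0.0137), but not without MG-CM replicate 2 (0.0626) or MG-CM replicate 3 (0.0671). Mid1ip1, whose protein promotes the activity of acetyl-CoA carboxylase, fell by 1.02 ± 0.26 in CM-JAKi against CM (adjusted p = 0.0277), but not without CM-JAKi replicate 2 (0.0958), CM-JAKi replicate 3 (0.0834) or CM replicate 1 (0.074). Scap had log2 fold changes of -0.09 ± 0.09 in CM against MG-CM and 0.05 ± 0.09 in CM-JAKi against CM (adjusted p = 0.549 and 0.753). The liver X receptors Nr1h2 and Nr1h3, known activators of Srebf1, had 0.10 ± 0.07 and 0.10 ± 0.35 in CM against MG-CM and 0.01 ± 0.07 and 0.17 ± 0.35 in CM-JAKi against CM, without a call. Mlxipl, which encodes the carbohydrate-responsive factor ChREBP, had too few counts to be tested.

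Most genes of sterol synthesis, the other known SREBP programme, had the same directions as the 10 fatty acid genes. Of 22 tested genes 16 rose and 0 fell in CM against MG-CM (median 0.80), and 13 fell and 0 rose in CM-JAKi against CM (median -0.61). Of all genes 4.85% rose in the former and 8.93% fell in the latter. Between CM-JAKi and MG-CM edgeR called 0, as did DESeq2, while 2 genes were higher and 1 was lower before adjustment at 0.05 (median 0.12). No share of all genes is given for that unadjusted cut, so these counts are a description only. Hmgcs1 was not analysed here. Cyp51 and Fdps, enzymes of the cholesterol route, averaged 273.9 ± 48.4 and 216.3 ± 30.4 CPM in CM-JAKi, 597.4 ± 249.6 and 398.1 ± 81.9 in CM and 262.4 ± 35.2 and 196.9 ± 38.1 in MG-CM. Both were called in both comparisons with CM (adjusted p = 0.0231 and 0.015 for CM-JAKi against CM and 0.0289 and 0.017 for CM against MG-CM). The rise of Fdps did not pass without MG-CM replicate 2 (0.0771), nor that of Cyp51 without MG-CM replicates 1, 2 and 3, each in turn (0.0627 to 0.12). The drop of Fdps was not called without CM-JAKi replicate 2 (0.0643), nor that of Cyp51 without CM-JAKi replicate 2 (0.0871) or 3 (0.0677). Without MG-CM replicate 2 the count of risen sterol genes was 0, and it was 8 without MG-CM replicate 1 and 10 without CM replicate 1. In this order 0.326%, 2.88% and 2.24% of all genes rose. The count of fallen sterol genes was 2 without CM-JAKi replicate 2, 7 without CM replicate 1 and 8 without CM-JAKi replicate 3. Of all genes 3.48%, 5.37% and 5.10% fell, in this order.

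**Figure D3:**
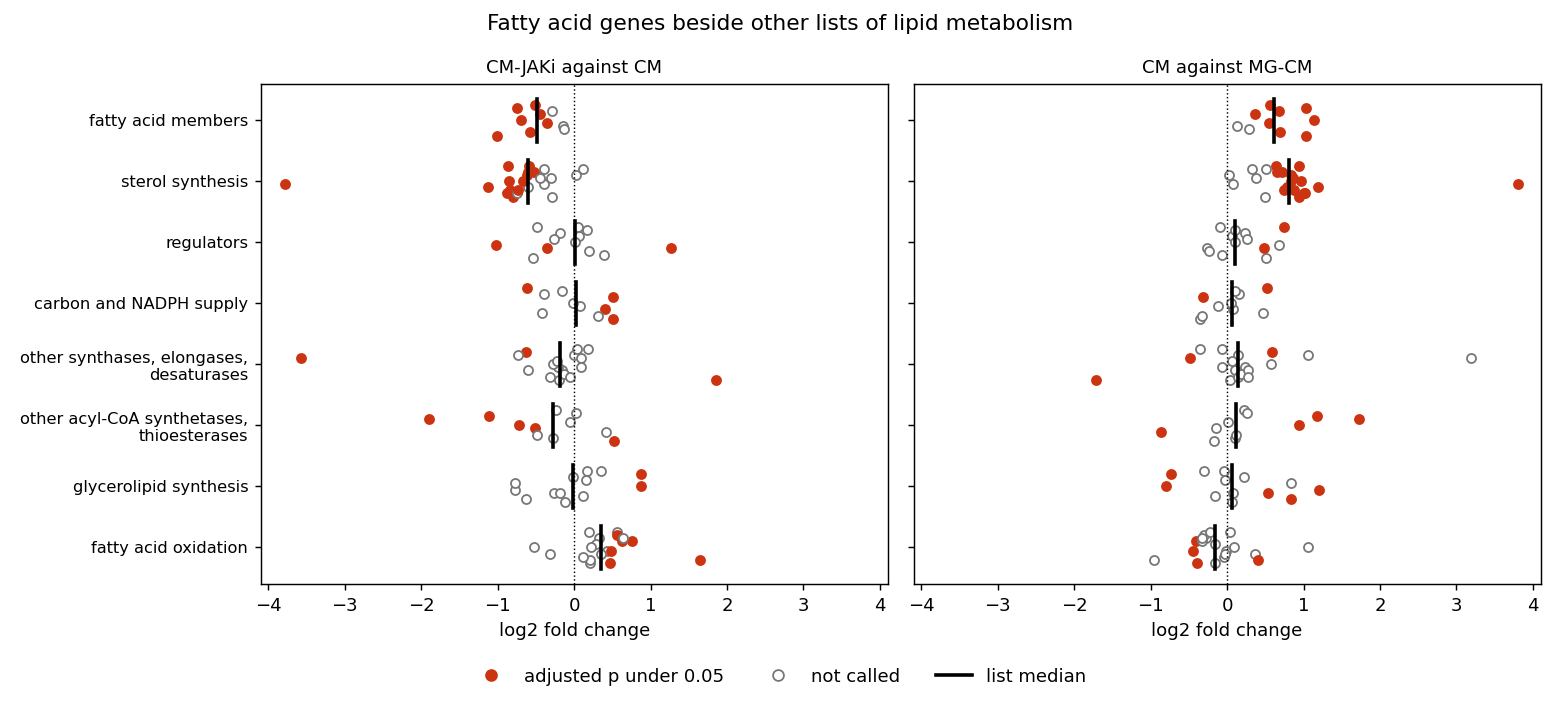
Log2 fold change of every tested gene, 1 row per list, in CM-JAKi against CM and in CM against MG-CM, with a vertical line at the list's median. The 10 fatty acid genes and the sterol list have medians of -0.48 and -0.61 in CM-JAKi against CM and of 0.62 and 0.80 in CM against MG-CM, while fatty acid oxidation has 0.35 and -0.16.

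The enzymes that feed or use the pathway had calls in both directions. Of 10 genes of carbon and NADPH supply, 1 rose and 1 fell in CM against MG-CM, and 3 rose and 1 fell in CM-JAKi against CM. With the block these counts were 2 and 2, and 4 and 3. The shares of all genes, in this order, were 4.85% and 5.39%, and 10.1% and 8.93%. With the block they were 11.6% and 12.8%, and 18.6% and 15.6%. Aacs, which makes acetoacetyl-CoA for lipid synthesis, rose by 0.52 ± 0.13 with CM (adjusted p = 0.0425) and fell by 0.62 ± 0.13 with the inhibitor (0.0153). Brp44 and Brp44l, the subunits of the mitochondrial pyruvate carrier, both rose by 0.51 in CM-JAKi against CM (adjusted p = 0.00582 and 0.0378), and Brp44 fell by 0.32 ± 0.08 in CM against MG-CM (0.0441). Acss2, which makes acetyl-CoA from acetate, rose by 0.40 ± 0.10 in CM-JAKi against CM (adjusted p = 0.0293). Without single libraries, the rise of Aacs was not called without MG-CM replicates 1 and 2, CM replicates 1 and 2 or CM-JAKi replicates 2 and 3, each in turn (0.0593 to 0.154), and its drop without CM-JAKi replicate 2 (0.064). The drop of Brp44 was lost whichever of the 9 libraries was omitted (0.0553 to 0.128). The rise of Brp44l was not called without each library other than MG-CM replicates 1 and 2 (0.0504 to 0.101), and that of Acss2 without CM replicates 1 and 3 or CM-JAKi replicates 1, 2 and 3 (0.05 to 0.117).

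Of 18 other synthases, elongases and desaturases tested, 1 rose and 2 fell in CM against MG-CM, and 1 rose and 2 fell in CM-JAKi against CM. With the block 4 rose and 2 fell in CM against MG-CM, and 1 rose and 4 fell in CM-JAKi against CM. Of all genes 4.85% rose and 5.39% fell in CM against MG-CM, and 10.1% rose and 8.93% fell in CM-JAKi against CM. With the block these shares were 11.6% and 12.8%, and 18.6% and 15.6%. Hsd17b12, the reductase of the elongation cycle, rose by 0.59 ± 0.13 with CM (adjusted p = 0.0249) and fell by 0.63 ± 0.13 with the inhibitor (0.0127). Ptplad2, now called Hacd4 and related to the dehydratases of that cycle, averaged 20.7 ± 1.38 CPM in CM-JAKi, 5.75 ± 2.67 in CM and 18.9 ± 2.05 in MG-CM. Its change was thus opposite to that of Hsd17b12, and it was called in both comparisons (log2 1.85 ± 0.32, adjusted p = 0.00727 for CM-JAKi against CM, and -1.71 ± 0.32, adjusted p = 0.0175 for CM against MG-CM). Ptplad1, now called Hacd3, fell by 0.48 ± 0.07 in CM against MG-CM (adjusted p = 0.0103) and by 0.40 ± 0.07 in CM-JAKi against MG-CM (0.0492). Elovl3 was called lower in CM-JAKi against CM at 1 to 6 counts per CM-JAKi library and 12 to 88 per CM library, and no fold is given. The calls of Hsd17b12 were lost on omission of MG-CM replicate 1 (adjusted p of 0.0511), MG-CM replicate 2 (0.0868) or CM replicate 1 (0.0681) for the rise and without CM-JAKi replicate 2 (0.0543) for the drop. The drops with CM of Ptplad2 and Ptplad1 were not called without MG-CM replicate 2 (0.0771 and 0.0551). In CM-JAKi against MG-CM, Ptplad1 lost its call without each library other than CM replicate 1 (0.0699 to 0.194). In CM-JAKi against CM, Elovl3 lost its call without CM replicate 1, CM-JAKi replicates 1, 2 and 3 or MG-CM replicate 2 (0.0537 to 0.129).

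Of 11 other acyl-CoA synthetases and thioesterases, 3 rose and 1 fell in CM against MG-CM, and 1 rose and 4 fell in CM-JAKi against CM, or 1 and 6 with the block. The shares of all genes were 4.85% and 5.39%, and 10.1% and 8.93%, or 18.6% and 15.6% with the block. Acsl4, which prefers arachidonic acid, had 159.4, 112.6 and 119.4 CPM in CM-JAKi, 387.6, 211.1 and 247.2 CPM in CM and 139.5, 104.5 and 131.9 CPM in MG-CM. Its CM libraries stood clear of the rest, as for Acsl3. It rose by 1.17 ± 0.24 with CM (adjusted p = 0.022) and fell by 1.11 ± 0.24 with the inhibitor (0.0152). Acsl6 averaged 6.43 ± 1.09 CPM in CM-JAKi, 10.6 ± 1.57 in CM and 5.51 ± 1.11 in MG-CM, and was called in the same directions (adjusted p = 0.0389 for CM-JAKi against CM and 0.0248 for CM against MG-CM). Acot2, a thioesterase with a near-identical copy in Acot1, was called in these directions too (0.0227 for CM-JAKi against CM and 0.0447 for CM against MG-CM), and its value is uncertain. Acsl1, which serves both storage and oxidation, fell by 0.65 ± 0.12 in CM-JAKi against MG-CM (adjusted p = 0.0462), a call lost without each library other than CM-JAKi replicate 1 (0.0504 to 0.159). The calls of Acsl4 were lost without MG-CM replicate 2 (0.0917) or MG-CM replicate 3 (0.0568) for the rise and CM-JAKi replicate 2 (0.0643) or CM-JAKi replicate 3 (0.0528) for the drop. Those of Acsl6 were lost without MG-CM replicates 1 and 2 or CM replicate 3 for the rise (0.0642 to 0.107), and without each library other than MG-CM replicates 1 and 3 for the drop (0.055 to 0.105). The rise of Acot2 was called only without CM replicate 3 (0.0539 to 0.153 without the others), and its drop was not called without CM replicates 1 and 2 or CM-JAKi replicates 2 and 3 (0.0541 to 0.0816).

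Glycerolipid synthesis, the step after fatty acid activation, had calls in both directions in CM. Of 13 tested genes 3 rose and 2 fell in CM against MG-CM, and 2 rose and 0 fell in CM-JAKi against CM. The shares of all genes were 4.85% and 5.39%, and 10.1% and 8.93%, or in the latter comparison 18.6% and 15.6% with the block. With the block 3 rose and 3 fell in CM-JAKi against CM, the fallen being Dgat2, Agpat2 and Agpat9 (adjusted p = 0.00447, 0.0289 and 0.0491, against 0.0735, 0.151 and 0.0586 without it). Gpam, the mitochondrial glycerol-3-phosphate acyltransferase, averaged 70.3 ± 12.5 CPM in CM-JAKi, 38.1 ± 4.77 in CM and 66.3 ± 12.7 in MG-CM. Lpin1, a phosphatidate phosphatase, averaged 54.0 ± 8.66 CPM in CM-JAKi, 29.5 ± 4.11 in CM and 49.4 ± 6.29 in MG-CM. Both fell with CM (adjusted p = 0.0268 and 0.0229) and rose with the inhibitor (0.0122 and 0.00774), opposite to most of the 10 fatty acid genes. Agpat9, now called Gpat3, and Dgat2, which makes triglyceride, rose in CM against MG-CM by 1.2 ± 0.25 and 0.84 ± 0.22 (adjusted p = 0.0225 and 0.0441). In that comparison Gpam lost its call without MG-CM replicates 2 and 3 or CM replicates 1 and 2 (0.0529 to 0.113), and Lpin1 without MG-CM replicates 1 and 2 or CM replicate 3 (0.0539 to 0.0944). Agpat9 lost its call without MG-CM replicates 1, 2 and 3 or CM replicate 1 (0.0503 to 0.096), and Dgat2 without MG-CM replicates 1, 2 and 3, CM replicates 1 and 3 or CM-JAKi replicate 1 (0.0527 to 0.164). Between CM-JAKi and MG-CM edgeR and DESeq2 called 0 of the list, while 2 genes were higher and 0 lower before adjustment at 0.05. No share of all genes is given for that unadjusted cut, so these counts are a description only.

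Of 19 genes of fatty acid oxidation, the opposing route, 6 rose and 0 fell in CM-JAKi against CM (median 0.35), while 10.1% of all genes rose. With the block 13 of them rose, while 18.6% of all genes did. In CM against MG-CM 1 rose and 3 fell (median -0.16), beside 4.85% of all genes higher and 5.39% lower. With the block 3 rose and 8 fell, beside 11.6% of all genes higher and 12.8% lower. Hadh, an enzyme of the oxidation spiral, had 64.6, 66.5 and 76.2 CPM in CM-JAKi, 43.4, 38.8 and 40.9 CPM in CM and 48.5, 55.9 and 50.4 CPM in MG-CM. The groups did not overlap, and Hadh rose by 0.75 ± 0.09 in CM-JAKi against CM (adjusted p = 0.00196). The dehydrogenase Acadm rose by 0.63 ± 0.10 and the coactivator Ppargc1a by 1.64 ± 0.32 in that comparison (adjusted p = 0.00582 and 0.0101). In CM against MG-CM, Hadhb fell by 0.44 ± 0.08 and Acadm fell by 0.41 ± 0.10 (adjusted p = 0.0173 and 0.0423). Cpt1a, which admits fatty acids to the mitochondrion, was the 1 gene of the list called higher in CM against MG-CM. With the block Cpt1b and Acadl were also called higher there (adjusted p = 0.0111 and 0.0453, against 0.108 and 0.134 without it). Cpt1a averaged 150.2 ± 13.6 CPM in CM-JAKi, 129.4 ± 6.18 in CM and 97.7 ± 3.98 in MG-CM, and rose in both groups with organoid medium over MG-CM (log2 0.62 ± 0.09, adjusted p = 0.0163 for CM-JAKi, and 0.41 ± 0.09, 0.0247 for CM). Cpt1a lost these calls without MG-CM replicates 1, 2 and 3 or CM-JAKi replicate 3 for CM-JAKi (0.0528 to 0.0722) and without MG-CM replicates 1, 2 and 3 or CM replicates 1 and 3 for CM (0.0556 to 0.108). With CM, Hadhb was not called without MG-CM replicate 2 (0.0815), and Acadm was not called whichever of the 9 was omitted (0.051 to 0.164).

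The calls of these surrounding lists rested on the same libraries as those of the 10 genes. Of 116 tested genes in the lists, 41 were called in either direction in CM against MG-CM, beside 4.85% of all genes higher and 5.39% lower. Of the 41, 1, Socs2, was still called without MG-CM replicate 2, against 18 to 36 without each other library. Over all genes the calls without MG-CM replicate 2 went from 660 to 45 higher and from 734 to 86 lower. All 41 kept their direction in each case, which says little, since they were chosen as called in the full fit that shares these libraries. In CM-JAKi against CM 45 were called, beside 10.1% of all genes higher and 8.93% lower. Of the 45, 18 still were without CM-JAKi replicate 2 and 28 to 42 without each other library. Over all genes the calls without CM-JAKi replicate 2 went from 1369 to 512 higher and from 1216 to 479 lower. Those called without each library in turn included Insig2, Ptplad2, Brp44, Gpam, Lpin1, Hadh, Acadm and Ppargc1a. In CM-JAKi against MG-CM 8 were called, beside 0.286% of all genes higher and 0.720% lower. Of the 8, 2 were still called without MG-CM replicate 3, 3 without MG-CM replicate 1, MG-CM replicate 2 or CM-JAKi replicate 3 and 4 to 7 without each other library. Over all genes the calls without MG-CM replicate 3 went from 39 to 8 higher and from 98 to 41 lower. As a check of the inhibitor, 9 of 10 JAK-STAT feedback and target genes fell in CM-JAKi against CM, beside 8.93% of all genes. In CM against MG-CM 4 of them rose and 1, Socs2, fell, beside 4.85% and 5.39%. In CM-JAKi against MG-CM Cish, Irf9, Socs2 and Socs3 fell, that is 4 of 10, beside 0.720%. Socs3, a feedback inhibitor induced by STAT3, averaged 32.6 ± 2.27 CPM in CM-JAKi, 136.5 ± 35 in CM and 76.1 ± 7.40 in MG-CM. Irf9, a subunit of the interferon-activated factor ISGF3, fell by 2.81 ± 0.19 in CM-JAKi against CM (adjusted p = 0.00015).

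Averaged over the 10 genes after each was centred on its own mean, log2 CPM stood at -0.15, -0.14 and -0.04 in CM-JAKi, 0.48, 0.32 and 0.34 in CM and -0.40, -0.35 and -0.06 in MG-CM. Acaca and Fads1 followed this profile most closely, with root mean square differences of 0.085 and 0.090 over the 9 libraries, and Acly least, with 0.283. Among 10829 other genes with enough counts, the nearest were Adipor2, a receptor of adiponectin, with 0.062, Blm, a DNA helicase, with 0.075, and Tmed5, a cargo receptor of the secretory path, with 0.075. Acat2, the thiolase that opens the sterol route, followed with 0.082. Since they were chosen for this likeness, their levels carry no test. The measure compares shapes over 9 libraries that share 3 replicate numbers, of which replicates 2 and 3 are both PSC5.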

How the data were processed

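Total RNA depleted of ribosomal RNA was extracted with a PureLink kit and made into libraries with a stranded TruSeq kit, per the labels' protocols. Per the submitters' processing notes the tools included RSEM 1.2.29, STAR 2.5.1b and DESeq2, and the builds were mm9 and NCBIM37, with no role or order given. The table deposited by the authors holds expected counts, whole numbers not scaled between libraries, and this unit rests on the values and on RSEM being named. No column of values outside the 9 libraries was present.

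The analysis used edgeR 4.0.16 in R 4.3.3. The filter filterByExpr (minimum count 10, minimum total 15) kept 13613 of 17156 genes. Libraries were scaled by TMM, and CPM used these scaled totals. A quasi-likelihood fit with robust estimation and a term per group took all 9 libraries, which share one estimate of the spread. Each comparison was an F-test, two-sided, with Benjamini-Hochberg adjustment over all genes kept and a threshold of 0.05. Log2 CPM used a prior count of 2. The scripts were tested on simulated data. Alternatives were DESeq2 1.42.0, its size factors in edgeR, library size alone, no filter, the replicate number as a block, and leaving out each library and each replicate number. Another, the block without MG-CM replicate 2, was chosen after seeing the data.

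Replicate numbers mark the stellate line, so they pair the samples. Deviations from the group means correlated between same-numbered libraries at 0.291 to 0.68 over 9 pairs, and the highest correlation between different numbers was 0.279. The deviations of a gene sum to 0 within each group, so high values at the same number tend to lower those at other numbers. The contrast between them is thus partly built in. Replicates are separate cultures and medium sources, and differences between lines count as error in the main fit. Between replicates of a group the chi-square per degree of freedom was 15.5 to 113, so none was a repeat of another.

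The 10 genes, the surrounding lists and the tests were chosen with earlier results of these data known. By a set rule, those named were the 10 genes, up to 3 called genes per list and comparison with the largest fold change, Srebf2, Scap, Insig1, Nr1h2, Nr1h3 and Mlxipl, and the 5 genes nearest in profile. Genes named outside the rule, after the data were seen, include single marker genes and Agpat2, Cpt1b and Acadl, which the block called and the main fit did not. Single values of 3 genes that this rule named are not reported here. Hmgcs1 is not analysed here. Lists have no test of their own. Transcript lengths and shared 50-base stretches came from GENCODE transcripts, and promoter windows from RefSeq on GRCm38.p6, another build than the files', so no gene coordinates of the files are given.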

Additional observations from a re-analysis of the deposited data

Results flagged for a closer look

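Acsl3 in CM-JAKi against MG-CM differed in direction between the lines. The log2 difference was 0.09 in PSC4 and -0.02 and -0.30 in PSC5-I and PSC5-II, so the PSC4 pair was higher with the inhibitor and both PSC5 pairs were lower. The difference between lines was not tested, and the overall log2 fold change was -0.08 ± 0.09 (edgeR quasi-likelihood F-test, adjusted p = 0.863).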

How the results depend on the processing

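The direction of the 10 genes in CM against MG-CM and in CM-JAKi against CM was the same in every alternative run. For Acly in CM against MG-CM this says little. On omission of single libraries its log2 fold change went down to 0.00, with an adjusted p of up to 0.998 (edgeR quasi-likelihood F-test). With the replicate number as a block, which pairs libraries of the same line, 1577 genes were higher and 1748 lower in CM against MG-CM, against 660 and 734 without it. The blocked fit gave 2529 and 2126 in CM-JAKi against CM (1369 and 1216 without the block) and 252 and 327 in CM-JAKi against MG-CM (39 and 98). It called 9, 7 and 0 of the 10 genes and added Srebf1 to those called without it. DESeq2 gave 1207 and 1309 in CM against MG-CM and 198 and 314 in CM-JAKi against MG-CM. The block without MG-CM replicate 2 gave 2133 and 1900 in CM-JAKi against CM and 69 and 176 in CM-JAKi against MG-CM. It called 6 of the 10 genes higher in CM against MG-CM, beside 575 of all genes.

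Leaving out single libraries or whole replicate numbers gave 6 to 837 higher and 2 to 876 lower genes in CM against MG-CM, 76 to 1562 and 180 to 1408 in CM-JAKi against CM, and 0 to 216 and 0 to 249 in CM-JAKi against MG-CM. The 10 genes gave 0 to 8 risen in CM and 0 to 7 fallen with the inhibitor, and 0 in CM-JAKi against MG-CM. Without replicate 2, 0 were called in any comparison, and without replicate 3 the counts were 0 and 1. Of all genes, 6 rose in CM against MG-CM and 180 fell in CM-JAKi against CM without replicate 2. Without replicate 3 these were 23 and 282. Signs turned only in CM-JAKi against MG-CM, where values were near 0. Over these omissions the log2 fold change was -0.03 to 0.16 for Acaca, -0.16 to 0.08 for Acly, -0.16 to 0.03 for Acsl3, -0.13 to 0.24 for Elovl6 and -0.01 to 0.29 for Fasn. Acly was at 0.00 with library size alone, and the block without MG-CM replicate 2 gave -0.01 for Acaca and 0.00 for Fasn. The cause was not tested.

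Library size alone moved the median log2 fold change of all genes to -0.0663 for CM against MG-CM, 0.103 for CM-JAKi against CM and 0.0291 for CM-JAKi against MG-CM, and that of the 10 genes, in this order, to 0.55, -0.39 and 0.16. It called 7 of them higher in the first comparison and 5 lower in the second, beside 495 and 865 of all genes. Counting error was at most 4.26% for any of the 10 genes in any library.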
